A study of Mus musculus with 12 samples.

Results

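The genes described here are YAP, TAZ, a pair of TEAD factors and 6 of their targets: Yap1, Wwtr1, Tead1, Tead4, Ccn1, Ccn2, Ankrd1, Axl, Amotl2 and Lats2. They were chosen by symbol, 10 of the 53599 genes in the count table, and all 10 were among the 14798 genes that passed the filter on low counts. RNA-seq was made from mouse liver cell cultures of 2 origins, bilCLiP (derived from biliary epithelial cells, BEC) and hepCLiP (derived from hepatocytes), each as 3D spheroids after hepatic induction and in 2D culture. The title of the series names hepatobiliary plasticity as its subject. There were 4 groups of 3 libraries, bilCLiP 3D, bilCLiP 2D, hepCLiP 3D and hepCLiP 2D.

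All groups were kept in small hepatocyte medium with YAC, the mixture of Y-27632, A83-01 and CHIR99021 that inhibits the kinase ROCK, the TGF-beta receptor and the kinase GSK3. The 3D spheroids were formed over 3 days in microwells without serum and then floated for 6 to 8 days with 10 ng/ml oncostatin M, a cytokine that promotes hepatocyte maturation. The 2D cells grew on collagen-coated plates with 10% fetal bovine serum. Geometry, serum, oncostatin M and time therefore differed together between 3D and 2D, and their shares in any difference cannot be told apart. The genotype label is RosaYFP for all bilCLiP libraries and hepCLiP replicate 2, and RosaConfetti for hepCLiP replicates 1 and 3. Both are reporters at the Rosa26 locus, and the labels name no Cre driver. Whether a replicate is a clone, a culture or an animal is not stated in the labels.

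The Hippo pathway is a kinase cascade in which the MST kinases, with the scaffold SAV1, activate the LATS kinases, and these phosphorylate the coactivators YAP and TAZ and hold them in the cytoplasm. Unphosphorylated YAP and TAZ enter the nucleus and bind the TEAD factors, which carry them to the promoters and enhancers of targets such as Ccn1 and Ccn2. Flat, spread cells on a stiff surface are known for nuclear YAP, and in the liver YAP is high in bile duct cells and low in mature hepatocytes. RNA levels do not report the phosphorylation or location of either coactivator.

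The letters GGAATG, read CATTCC on the other strand, are the core of the sequence that TEAD factors bind. They were searched on both strands of RefSeq promoter windows (GRCm38.p6). Each window holds the 250 bases before and the 50 bases after a start of a gene. Windows were found for 7 of the 10 genes and were not found for Tead1, Tead4 and Ccn2. At least 1 match stood in a window of each of the 7 genes, against 14.9% of the 10826 tested genes that have a window. The windows of 4 targets and of Yap1 are shown because they place these letters close to a start of the gene. The levels of these genes are compared next. Capitals mark GGAATG or CATTCC, and each sequence runs 5′ to 3′ on the gene's own strand.
Ccn1, chr3:145649936-145650235, minus strand: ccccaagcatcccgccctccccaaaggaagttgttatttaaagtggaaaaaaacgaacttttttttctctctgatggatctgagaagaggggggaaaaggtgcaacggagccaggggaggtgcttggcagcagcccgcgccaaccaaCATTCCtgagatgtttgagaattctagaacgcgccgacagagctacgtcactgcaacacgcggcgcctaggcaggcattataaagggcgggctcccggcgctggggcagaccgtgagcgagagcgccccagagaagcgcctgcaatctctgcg
Ankrd1, chr19:36119795-36120094, minus strand: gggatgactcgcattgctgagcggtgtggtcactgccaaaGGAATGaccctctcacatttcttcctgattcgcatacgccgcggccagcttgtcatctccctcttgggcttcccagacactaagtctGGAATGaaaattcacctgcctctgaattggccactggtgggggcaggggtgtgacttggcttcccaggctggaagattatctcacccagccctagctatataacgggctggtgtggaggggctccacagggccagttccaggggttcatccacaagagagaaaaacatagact
Axl, chr7:25788684-25788983, minus strand: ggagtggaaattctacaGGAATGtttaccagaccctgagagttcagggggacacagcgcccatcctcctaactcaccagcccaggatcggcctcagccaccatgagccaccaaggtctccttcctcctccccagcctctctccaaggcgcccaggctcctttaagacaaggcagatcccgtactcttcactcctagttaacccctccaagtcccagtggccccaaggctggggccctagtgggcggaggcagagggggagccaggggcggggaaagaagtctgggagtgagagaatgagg
Amotl2, chr9:102717554-102717853, plus strand: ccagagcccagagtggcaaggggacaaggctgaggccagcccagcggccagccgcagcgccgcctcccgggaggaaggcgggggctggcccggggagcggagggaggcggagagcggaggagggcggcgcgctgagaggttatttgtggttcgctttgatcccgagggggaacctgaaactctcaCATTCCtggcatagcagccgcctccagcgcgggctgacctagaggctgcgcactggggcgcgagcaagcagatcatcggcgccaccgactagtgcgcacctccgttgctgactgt
Yap1, chr9:8004547-8004846, minus strand: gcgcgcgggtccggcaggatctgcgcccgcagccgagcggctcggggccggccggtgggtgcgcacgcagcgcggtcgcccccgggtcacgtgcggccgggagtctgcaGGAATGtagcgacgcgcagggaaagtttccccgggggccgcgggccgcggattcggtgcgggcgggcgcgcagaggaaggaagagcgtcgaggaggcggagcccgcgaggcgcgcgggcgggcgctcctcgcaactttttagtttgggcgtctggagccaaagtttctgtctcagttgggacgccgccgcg

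Distances are to the start on which each window is built. The match in the Ccn1 window began 103 bases before the start, and that in the Amotl2 window 65 bases before it. The Ankrd1 window held 2 matches, 210 and 123 bases before the start. The Axl window held 1 match 233 bases before it, and the Yap1 window 1 match 141 bases before it. The Amotl2 window and its match lie inside the RefSeq span of the gene, chr9:102717091-102733418. The starts of the Axl and Yap1 windows lie inside their genes' spans too, so their distances are not from the outer end. The letters TGANTCA of the AP-1 factors and the CArG box of SRF are both known at serum-induced genes. They stood in 0 of the 7 genes' windows, against 6.63% and 1.62% of tested genes with a window. At such shares 0 of 7 genes is the common outcome, so this count does not set the 7 genes apart. Ccn2 had no window to search. A match is a run of letters and not a measured binding site.

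Beyond the 10 genes, the letters GGAATG or CATTCC stood in the windows of 2 of 10 other YAP and TAZ targets with a window, and of 7 of 20 other Hippo pathway genes with a window.

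Sequencing depth was 16142365 to 21253382 counts per library. The 10 most abundant genes took 17.6% to 23.2% of counts in 3D libraries and 4.997% to 7.47% in 2D libraries, so levels are given as CPM, counts scaled to the TMM-adjusted library size. The treatment tags of the 3 bilCLiP 3D libraries say 2D and that of hepCLiP 2D replicate 3 says 3D, against their titles, which were used. By log2 CPM the bilCLiP 3D libraries correlated at 0.938 to 0.969 with hepCLiP 3D and at 0.789 to 0.884 with bilCLiP 2D, and hepCLiP 2D replicate 3 at 0.836 to 0.867 with hepCLiP 3D and within its own titled group at 0.960 to 0.968. Summed hepatocyte markers (Alb, Ttr, Hnf4a, Cebpa, Apoa1, Cps1; all 6 detected) were 17393 to 43229 CPM in bilCLiP 3D and 179.7 to 1043 CPM in bilCLiP 2D. They were 40755 to 51470.2 CPM in hepCLiP 3D and 341 to 1607 CPM in hepCLiP 2D. Summed biliary markers (Krt19, Krt7, Epcam, Sox9, Spp1; all 5 detected) were 13593 to 33256 CPM in bilCLiP 3D, 5414 to 10329.97 in bilCLiP 2D, 11268 to 15626 in hepCLiP 3D and 3113 to 5861 in hepCLiP 2D. These sums were mostly Spp1, osteopontin, at 24804 ± 10183 CPM in bilCLiP 3D and 6225 ± 2054 CPM in bilCLiP 2D, and 13681 ± 2288 CPM in hepCLiP 3D and 2693 ± 1468 CPM in hepCLiP 2D (SD, n = 3). The bile duct keratin Krt19 was lower in 3D, at 5.32 ± 5.88 CPM in bilCLiP 3D and 694 ± 295 CPM in bilCLiP 2D, and 8.74 ± 9.03 CPM in hepCLiP 3D and 860.4 ± 336 CPM in hepCLiP 2D. Krt7 was at 106 ± 56.6 CPM in bilCLiP 3D and 427 ± 249.97 CPM in bilCLiP 2D, and 55.8 ± 44.5 CPM in hepCLiP 3D and 507 ± 319 CPM in hepCLiP 2D. For all 3 genes the 3D and 2D libraries of an origin did not overlap, whereas for Sox9 and Epcam they did. In such bulk samples, fewer cells of a type and less RNA per cell cannot be told apart.

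In both origins, 7 of the 10 genes fell in 3D spheroids and none rose. They were Wwtr1, Tead1, Ccn1, Ccn2, Ankrd1, Axl and Amotl2, with falls of 1.52-fold to 11.3-fold in bilCLiP and 1.47-fold to 23.0-fold in hepCLiP. Yap1, Tead4 and Lats2 did not pass the test in either origin. Calls are at an adjusted p under 0.05 by edgeR's quasi-likelihood test with Benjamini-Hochberg adjustment. Of all genes tested, 14.5% were called lower and 15.8% higher in bilCLiP 3D than in bilCLiP 2D, and 17.9% were called lower and 16.9% higher in hepCLiP 3D than in hepCLiP 2D. The median log2 fold change of the 10 genes was -1.63 in bilCLiP and -1.72 in hepCLiP, against -0.00 and -0.06 over all genes tested. The 3D libraries lay wholly below the 2D libraries for 7 of the 10 genes in bilCLiP and 8 in hepCLiP, which held for 24.5% of all genes tested in bilCLiP and 24.5% in hepCLiP.

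**Figure D1:**
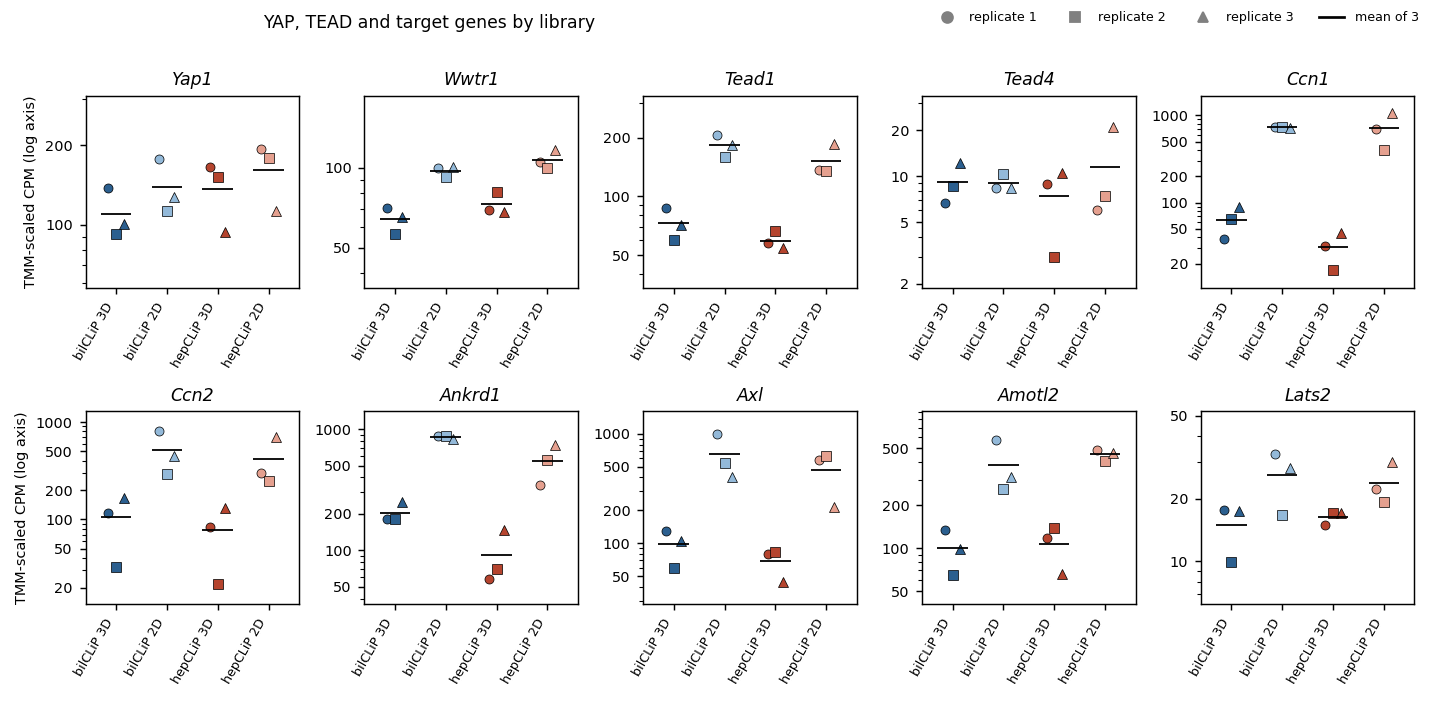
TMM-scaled CPM on a log axis of each of the 10 genes, with 1 point per library, its shape giving the replicate number, and a line at the mean of 3. The 3D points of Ccn1, at 16.7 to 88.6 CPM, lie below all its 2D points, at 396 to 1049 CPM, whereas the Tead4 points of both cultures overlap.

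Among the coactivators, Wwtr1, which encodes TAZ, fell in both origins. Its level was 70.7, 56.2 and 65.0 CPM in bilCLiP 3D replicates 1, 2 and 3, against 99.3, 92.4 and 101 CPM in bilCLiP 2D. In hepCLiP it was 69.4, 80.6 and 68.0 CPM in 3D, against 105, 99.4 and 117 CPM in 2D. All 6 3D libraries lay below all 6 2D libraries. Wwtr1 fell by 0.61 ± 0.123 (SE) on the log2 scale in bilCLiP (adjusted p = 0.00419, edgeR) and by 0.56 ± 0.123 in hepCLiP (adjusted p = 0.00539).

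Yap1 varied more between replicate numbers than between cultures. It was at 138, 91.7 and 101 CPM in bilCLiP 3D replicates 1, 2 and 3, against 177, 113 and 127 CPM in bilCLiP 2D. Its hepCLiP level was 166, 151 and 93.3 CPM in 3D, against 193, 178 and 113 CPM in 2D. The groups overlapped in both origins, and the log2 fold change was -0.34 in bilCLiP (95% interval -0.95 to 0.28, adjusted p = 0.397, edgeR) and -0.24 in hepCLiP (interval -0.85 to 0.38, adjusted p = 0.543). Within each of the 6 same-numbered pairs, however, the 3D library was at 0.779 to 0.859 of the 2D library. With replicate number within origin as a block, the log2 fold change of Yap1 was -0.33 in bilCLiP (adjusted p = 0.0183) and -0.24 in hepCLiP (adjusted p = 0.0519), so the call differed from that without the block in bilCLiP. Yap1 also passed when libraries were scaled by their totals without TMM, at -0.80 in bilCLiP (adjusted p = 0.0435) and -0.83 in hepCLiP (adjusted p = 0.0337), but under that scaling the median of all genes was itself at -0.47 and -0.63.

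Of the TEAD factors, which bind DNA, Tead1 fell in both origins and Tead4 did not pass. Tead1 was at 87.1, 59.8 and 71.7 CPM in bilCLiP 3D, against 205, 158 and 184 CPM in bilCLiP 2D. The hepCLiP libraries had it at 57.4, 66.3 and 54.1 CPM in 3D, against 137, 135 and 185 CPM in 2D. Every 3D library was below every 2D library, and Tead1 fell 2.50-fold in bilCLiP (1.32 ± 0.182 on the log2 scale, adjusted p = 0.000536, edgeR) and 2.57-fold in hepCLiP (1.36 ± 0.182, adjusted p = 0.000408).

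Tead4 ran from 6.65 to 12.1 CPM in bilCLiP 3D, against 8.43 to 10.4 CPM in bilCLiP 2D, and from 2.98 to 10.5 CPM in hepCLiP 3D, against 6.06 to 20.98 CPM in hepCLiP 2D. The lowest value rested on 42 counts. The log2 fold change was 0.01 in bilCLiP (95% interval -1.14 to 1.16, adjusted p = 0.992, edgeR) and -0.62 in hepCLiP (interval -1.78 to 0.54, adjusted p = 0.389). In hepCLiP the value was 0.15 without hepCLiP 2D replicate 3, the library at 20.98 CPM.

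The largest falls were those of Ccn1, which encodes the secreted matricellular protein CYR61. Ccn1 was at 38.1, 65.6 and 88.6 CPM in bilCLiP 3D replicates 1, 2 and 3, against 736, 738 and 706 CPM in bilCLiP 2D. HepCLiP levels were 32.0, 16.7 and 44.6 CPM in 3D, against 700, 396 and 1049 CPM in 2D. The highest 3D library was below the lowest 2D library in each origin. Ccn1 fell 11.3-fold in bilCLiP (3.50 ± 0.460 on the log2 scale, adjusted p = 0.000445, edgeR) and 23.0-fold in hepCLiP (4.52 ± 0.483, adjusted p = 0.000139).

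Its relative Ccn2, which encodes the secreted protein CTGF, fell less and varied more. Ccn2 was at 116, 32.8 and 166 CPM in bilCLiP 3D, against 804, 293 and 452 CPM in bilCLiP 2D. For hepCLiP the values were 83.3, 21.6 and 131 CPM in 3D, against 302, 245 and 709 CPM in 2D. Replicate 2 was the lowest in all 4 groups. Ccn2 fell 4.93-fold in bilCLiP (2.30 ± 0.745 on the log2 scale, adjusted p = 0.0386, edgeR) and 5.32-fold in hepCLiP (2.41 ± 0.749, adjusted p = 0.0287). In bilCLiP, leaving out bilCLiP 2D replicate 1 (adjusted p = 0.118), bilCLiP 2D replicate 3 (0.0630), bilCLiP 3D replicate 1 (0.0872), bilCLiP 3D replicate 2 (0.111) or hepCLiP 3D replicate 1 (0.0532) ended the call, as did dropping the filter on low counts (0.124) or leaving out both bilCLiP libraries numbered 2 (0.106). In hepCLiP, leaving out hepCLiP 3D replicate 1 (0.0817), hepCLiP 3D replicate 2 (0.0725) or hepCLiP 2D replicate 3 (0.106, at a log2 fold change of -1.80) ended it, as did dropping the filter (0.106) or using RosaYFP libraries only (0.131). Within same-numbered pairs the 3D library held 0.0881 to 0.367 of the Ccn2 level of the 2D library, and with the replicate block both calls stood, at adjusted p = 0.00462 in bilCLiP and 0.00335 in hepCLiP.

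Ankrd1, an ankyrin repeat protein of nucleus and sarcomere, and Axl, the receptor tyrosine kinase for GAS6, both fell. Ankrd1 was at 183, 182 and 250 CPM in bilCLiP 3D, against 874, 869 and 822 CPM in bilCLiP 2D, and fell 4.17-fold (2.06 ± 0.366 on the log2 scale, adjusted p = 0.00209, edgeR). Its level in hepCLiP was 57.7, 69.7 and 148 CPM in 3D, against 343, 553 and 735 CPM in 2D, a 5.93-fold fall (2.57 ± 0.373, adjusted p = 0.000632). The 3D and 2D libraries of an origin did not overlap.

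Axl was at 131, 59.3 and 105 CPM in bilCLiP 3D, against 1005, 540 and 405 CPM in bilCLiP 2D, and fell 6.61-fold (adjusted p = 0.00243, edgeR). The hepCLiP values were 80.1, 83.5 and 44.6 CPM in 3D, against 576, 627 and 217 CPM in 2D, a 6.81-fold fall (adjusted p = 0.00191). Replicate 3 was the lowest hepCLiP library in both cultures, and the 3D libraries were below all 2D libraries.

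Amotl2 and Lats2 are targets that also restrain YAP, the angiomotin-like protein AMOTL2 by binding it and the kinase LATS2 by phosphorylating it. Amotl2 was at 135, 64.8 and 99.3 CPM in bilCLiP 3D, against 568, 258 and 317 CPM in bilCLiP 2D, and fell 3.83-fold (1.94 ± 0.368 on the log2 scale, adjusted p = 0.00304, edgeR). In hepCLiP it was at 117, 139 and 66.2 CPM in 3D, against 488, 407 and 465 CPM in 2D, and fell 4.22-fold (2.08 ± 0.370, adjusted p = 0.00182). The groups did not overlap in either origin.

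Lats2 changed less. It was at 17.6, 9.99 and 17.4 CPM in bilCLiP 3D, against 32.8, 16.8 and 28.0 CPM in bilCLiP 2D, groups that overlapped through replicate 2. In hepCLiP it was at 14.9, 17.1 and 17.0 CPM in 3D, against 22.3, 19.3 and 30.0 CPM in 2D, with no overlap. Its log2 fold change was -0.78 in bilCLiP (95% interval -1.42 to -0.15, adjusted p = 0.0603, edgeR) and -0.55 in hepCLiP (interval -1.18 to 0.08, adjusted p = 0.160). The 3D library was at 0.537 to 0.885 of its 2D partner in all 6 pairs, and with the replicate block Lats2 passed in both origins, at -0.78 in bilCLiP (adjusted p = 0.00563) and -0.53 in hepCLiP (adjusted p = 0.0238). Lats2 also passed in bilCLiP without bilCLiP 2D replicate 2 (-1.02, adjusted p = 0.0213) and by DESeq2 (adjusted p = 0.0376). With both bilCLiP libraries numbered 2 left out it passed in bilCLiP (adjusted p = 0.0452) and in hepCLiP (0.0477), and with library totals without TMM in bilCLiP (-1.25, adjusted p = 0.00779) and in hepCLiP (-1.12, adjusted p = 0.0110).

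**Figure D2:**
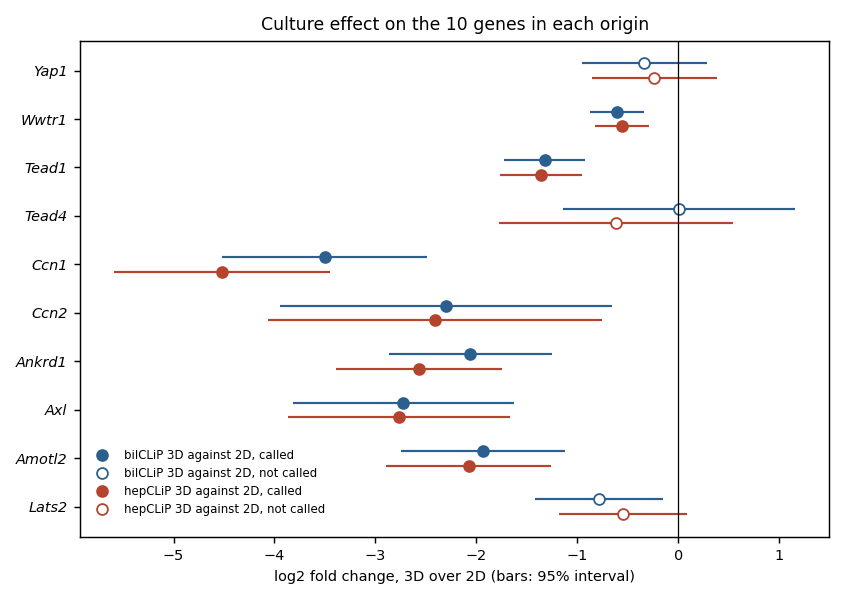
Log2 fold change, 3D over 2D, of the 10 genes in bilCLiP and hepCLiP with 95% intervals; filled points passed edgeR's test at an adjusted p under 0.05. Ccn1 stands farthest to the left at -3.50 in bilCLiP and -4.52 in hepCLiP, and the intervals of Yap1 and Tead4 include 0 in both origins.

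By same-numbered pairs, 9 of the 10 genes were lower in the 3D library in all 6 pairs, and Tead4 in 4 of 6. Of all genes tested, 27.2% were lower in all 6 pairs. Ratios of 3D to 2D ran from 0.0423 to 0.126 for Ccn1, 0.126 to 0.304 for Ankrd1, 0.110 to 0.258 for Axl, 0.142 to 0.341 for Amotl2 and 0.293 to 0.490 for Tead1. Those of Wwtr1 ran from 0.583 to 0.811 and did not reach the ratios of any of these 5 genes. With the replicate block, 9 of the 10 genes were called lower in bilCLiP and 8 in hepCLiP, against 21.5% and 24.7% of all genes tested under that fit. With RosaYFP libraries only, which leaves a single hepCLiP library per culture whose spread is assumed to be that of bilCLiP, only Ccn1 and Ankrd1 of the 7 falls in hepCLiP were still called.

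Levels of different genes were compared as CPM per kilobase of exon, with exon lengths from GENCODE M21. Each length is the union of all annotated exons of the gene, and the order depends on this choice. In bilCLiP 2D the order was Ccn1 at 360 ± 8.82, Ankrd1 at 296 ± 10.0, Ccn2 at 180 ± 91.3, Axl at 129 ± 62.5 and Amotl2 at 60.6 ± 26.1 CPM per kilobase (SD, n = 3). The first pair in this order did not overlap, whereas Ccn2 overlapped Axl, and Axl overlapped Amotl2. Below them stood Wwtr1 at 20.4 ± 0.918, Yap1 at 15.02 ± 3.66, Tead1 at 13.4 ± 1.71, Lats2 at 3.71 ± 1.18 and Tead4 at 2.53 ± 0.318 CPM per kilobase. Yap1, at 12.2 to 19.2, overlapped Tead1, at 11.7 to 15.1 CPM per kilobase. The lengths used were 4779 bases for Wwtr1, 9257 for Yap1 and 13570 for Tead1. By CPM, without the length, Tead1 at 182 stood above Yap1 at 139 and Wwtr1 at 97.4. The hepCLiP 2D order per kilobase was the same, from Ccn1 at 354 ± 162 to Tead4 at 3.19 ± 2.29 CPM per kilobase. Neighbours in it overlapped, apart from Amotl2 with Wwtr1 and Tead1 with Lats2. Ccn1 ran from 196 to 519, Ankrd1 from 119 to 255 and Ccn2 from 85.8 to 248 CPM per kilobase.

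In 3D the order changed at the top and the span narrowed. Ankrd1 led in bilCLiP 3D at 71.0 ± 13.5 CPM per kilobase, before Ccn2 at 36.6 ± 23.5, Ccn1 at 31.8 ± 12.5, Axl at 19.5 ± 7.21 and Amotl2 at 15.8 ± 5.57. In hepCLiP 3D, Ankrd1 at 31.8 ± 16.9 and Ccn2 at 27.5 ± 19.2 CPM per kilobase were followed by 5 genes within 17.1 to 13.8, namely Amotl2, Ccn1, Wwtr1, Yap1 and Axl, which did not differ beyond their spread. Tead1, at 5.37 ± 1.01 in bilCLiP 3D and 4.37 ± 0.462 CPM per kilobase in hepCLiP 3D, was below Yap1 and Wwtr1 in both origins.

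Between origins, none of the 10 genes was called in either culture. In 2D, 0 of 10 had an unadjusted p under 0.05, and DESeq2 and limma also called 0. Of all genes tested in 2D, 14.5% had an unadjusted p under 0.05, and edgeR called 0.135%, DESeq2 3.78% and limma 0.257%. In 3D, 2 of 10 had an unadjusted p under 0.05, DESeq2 called 1 and limma 0. Of all genes tested in 3D, 16.6% had an unadjusted p under 0.05, and edgeR called 0.101%, DESeq2 4.41% and limma 0.176%. The 2 genes were Ankrd1 and Ccn1. Ankrd1 was at 182 to 250 CPM in bilCLiP 3D, against 57.7 to 148 CPM in hepCLiP 3D, groups that did not overlap (log2 fold change 1.16 ± 0.357, 95% interval 0.37 to 1.95, adjusted p = 0.190). DESeq2 gave Ankrd1 1.13 with an adjusted p of 0.0448, and without hepCLiP 3D replicate 3, the highest of its group, edgeR gave 1.68 with an adjusted p of 0.0416.

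In 2D, Ankrd1 was at 822 to 874 CPM in bilCLiP, against 343 to 735 CPM in hepCLiP, also with no overlap (0.65 ± 0.353, adjusted p = 0.417, edgeR). Ccn1 in 3D was at 38.1 to 88.6 CPM in bilCLiP, against 16.7 to 44.6 CPM in hepCLiP, and the groups overlapped (1.04 ± 0.424, adjusted p = 0.259). In 2D its log2 fold change was 0.02 (adjusted p = 0.989), with a mean of 727 ± 17.8 CPM in bilCLiP and 715 ± 327 CPM in hepCLiP (SD, n = 3).

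The culture effects in bilCLiP and hepCLiP were also compared with each other as an interaction. Of the 10 genes 0 were called, 0 had an unadjusted p under 0.05, and DESeq2 and limma called 0. Of all genes tested, 3.6% had an unadjusted p under 0.05, and edgeR called 0%, DESeq2 0.108% and limma 0%. The fall of Ccn1 was smaller in bilCLiP than in hepCLiP by 1.02 on the log2 scale, with a 95% interval of -0.29 to 2.33. That of Ankrd1 was smaller by 0.51, with an interval of -0.59 to 1.61. The adjusted p of both was 1.00, and these intervals leave room for differences of over 1 log2 unit.

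Yap1 varied between replicate numbers together with other genes of its chromosome, and Amotl2 and Lats2 did so in part. The 5 named genes whose levels over the 12 libraries were most like those of Yap1, by Pearson's r of log2(CPM + 1), were Usp19 (r = 0.951), Cul5 (0.943), Snx33 (0.942), Vps26b (0.936) and Pafah1b2 (0.936). All 5 lie on chromosome 9, as do Yap1 and Amotl2. Of the 19 genes with r over 0.9 with Yap1, 18 lie on chromosome 9, which holds 792 of the 14119 tested genes placed on a chromosome, or 5.61%. The libraries share their replicate number across cultures, so these points are not independent.

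For Ccn1 the 5 most alike were Srl (r = 0.988), Nkain1 (0.988), Fbxw17 (0.985), Cul4b (0.985) and Npnt (0.983), which lie on chromosomes 16, 4, 13, X and 3. As many as 623 genes had r over 0.9 with Ccn1, which separates the cultures. Npnt was at 6.01 ± 2.65 CPM in bilCLiP 3D and 78.3 ± 8.42 CPM in bilCLiP 2D, and at 3.43 ± 0.539 CPM in hepCLiP 3D and 60.8 ± 17.9 CPM in hepCLiP 2D (SD, n = 3).

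The chromosome-wide level of a library was taken as the median, over the chromosome's genes of at least 10 CPM on average, of each gene's log2 deviation from its median in the 6 libraries of that culture, with the 10 genes left out. Over 533 genes of chromosome 9, bilCLiP replicate 1 was at 0.32 in 3D and 0.24 in 2D, hepCLiP replicate 1 at 0.11 and 0.16, and hepCLiP replicate 2 at 0.18 and 0.11. The other 3 were below 0 in both cultures, bilCLiP replicate 2 at -0.11 and -0.20, bilCLiP replicate 3 at -0.16 and -0.17 and hepCLiP replicate 3 at -0.14 and -0.15. These 3 were also the lowest for Yap1 in 3D and in 2D.

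With the chromosome 9 median subtracted, the SD of log2 Yap1 levels over 6 libraries was 0.237 in 3D and 0.183 in 2D, against 0.375 and 0.354 without. For Amotl2 it was 0.338 in 3D and 0.295 in 2D, against 0.486 and 0.422 without. In hepCLiP 2D, however, Amotl2 was higher in replicate 3, at 465 CPM, than in replicate 2, at 407 CPM. The chromosome 9 medians of these libraries were -0.15 and 0.11. Over 312 genes of chromosome 14, which holds Lats2, bilCLiP replicate 2 was at -0.61 in 3D and -0.66 in 2D, and the other libraries were at -0.03 to 0.15. The SD of Lats2 was 0.0958 in 3D and 0.263 in 2D with this median subtracted, against 0.295 and 0.367 without. The part of these chromosome-wide levels in the Yap1, Amotl2 and Lats2 results was not tested beyond the replicate block. The within-pair ratios set libraries of the same number against each other.

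**Figure D3:**
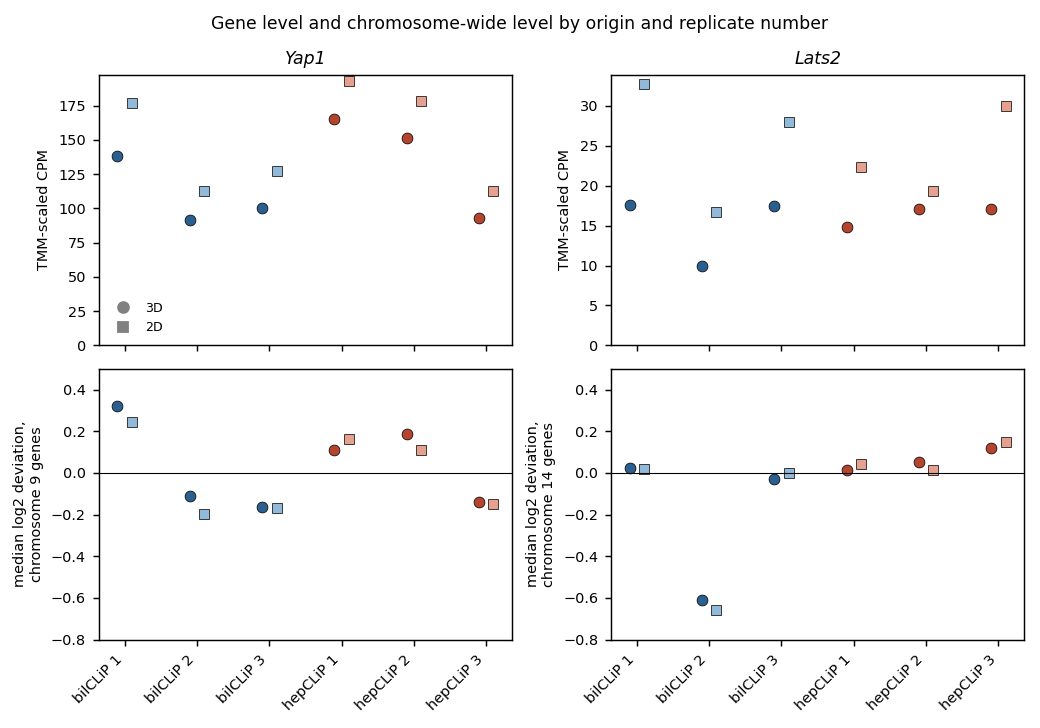
Above, TMM-scaled CPM of Yap1 and Lats2 by origin and replicate number, circles for 3D and squares for 2D. Below, the median log2 deviation of 533 genes of chromosome 9 and 312 genes of chromosome 14 in the same libraries. Yap1 is highest where chromosome 9 is above 0, and Lats2 of bilCLiP replicate 2, at 9.99 CPM in 3D and 16.8 CPM in 2D, stands over the chromosome 14 medians of -0.61 and -0.66.

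Among 25 other genes of the Hippo pathway, of which 24 were tested, 9 fell and 1 rose in bilCLiP, and 8 fell and 1 rose in hepCLiP, against 14.5% lower and 15.8% higher of all genes tested in bilCLiP and 17.9% and 16.9% in hepCLiP. Their median log2 fold changes were -0.48 in bilCLiP and -0.49 in hepCLiP. Genes that act upstream of LATS were among those that fell. Sav1, the scaffold of the MST kinases, was at 33.2 ± 2.86 CPM in bilCLiP 3D and 84.3 ± 12.6 CPM in bilCLiP 2D, and at 31.2 ± 3.70 CPM in hepCLiP 3D and 84.7 ± 10.4 CPM in hepCLiP 2D (SD, n = 3). It fell by 1.35 ± 0.151 on the log2 scale in bilCLiP (adjusted p = 0.000177, edgeR) and by 1.44 ± 0.151 in hepCLiP (adjusted p = 0.000130). Frmd6, a FERM domain protein of the cell cortex, fell by 1.64 ± 0.258 in bilCLiP (adjusted p = 0.00113) and 1.96 ± 0.262 in hepCLiP (adjusted p = 0.000407), and Ajuba, a LIM protein that binds LATS, by 1.67 ± 0.346 (adjusted p = 0.00488) and 1.54 ± 0.344 (adjusted p = 0.00614).

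The MST kinase gene Stk4 and Map4k4, a kinase that can act in parallel to MST, also fell in both origins. The LATS kinase gene Lats1, the MST kinase gene Stk3 and the cofactor genes Mob1a and Mob1b did not pass in either origin. Their log2 fold changes were -0.14 to 0.41 in bilCLiP and -0.00 to 0.21 in hepCLiP. Vgll3, a TEAD cofactor, fell by 1.89 ± 0.421 in bilCLiP (adjusted p = 0.00698, edgeR) and 1.34 ± 0.413 in hepCLiP (adjusted p = 0.0281). In bilCLiP the call of Vgll3 ended with both bilCLiP libraries numbered 2 left out (adjusted p = 0.0855). In hepCLiP, leaving out hepCLiP 2D replicate 1 (0.111), hepCLiP 3D replicate 2 (0.0951) or hepCLiP 3D replicate 3 (0.0940) ended it.

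The TEAD gene Tead3 went the other way from Tead1 and was the single Hippo pathway gene that rose. Tead2 did not pass in either origin, though its 3D library was at 0.292 to 0.659 of the 2D library in all 6 pairs. Tead3 was at 23.9 ± 1.12 CPM in bilCLiP 3D and 10.0 ± 2.05 CPM in bilCLiP 2D, and at 26.8 ± 2.95 CPM in hepCLiP 3D and 14.9 ± 4.93 CPM in hepCLiP 2D (SD, n = 3). It rose by 1.25 ± 0.240 on the log2 scale in bilCLiP (adjusted p = 0.00313, edgeR) and 0.84 ± 0.238 in hepCLiP (adjusted p = 0.0184), and was higher in the 3D library of all 6 pairs, 1.196-fold to 2.96-fold. Leaving out hepCLiP 2D replicate 1 (adjusted p = 0.0505), hepCLiP 2D replicate 2 (0.0529) or hepCLiP 3D replicate 2 (0.0601) ended the hepCLiP call. Scaled by library totals without TMM, Tead3 was at 0.78 in bilCLiP (adjusted p = 0.0237) and 0.27 in hepCLiP (adjusted p = 0.367).

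**Figure D4:**
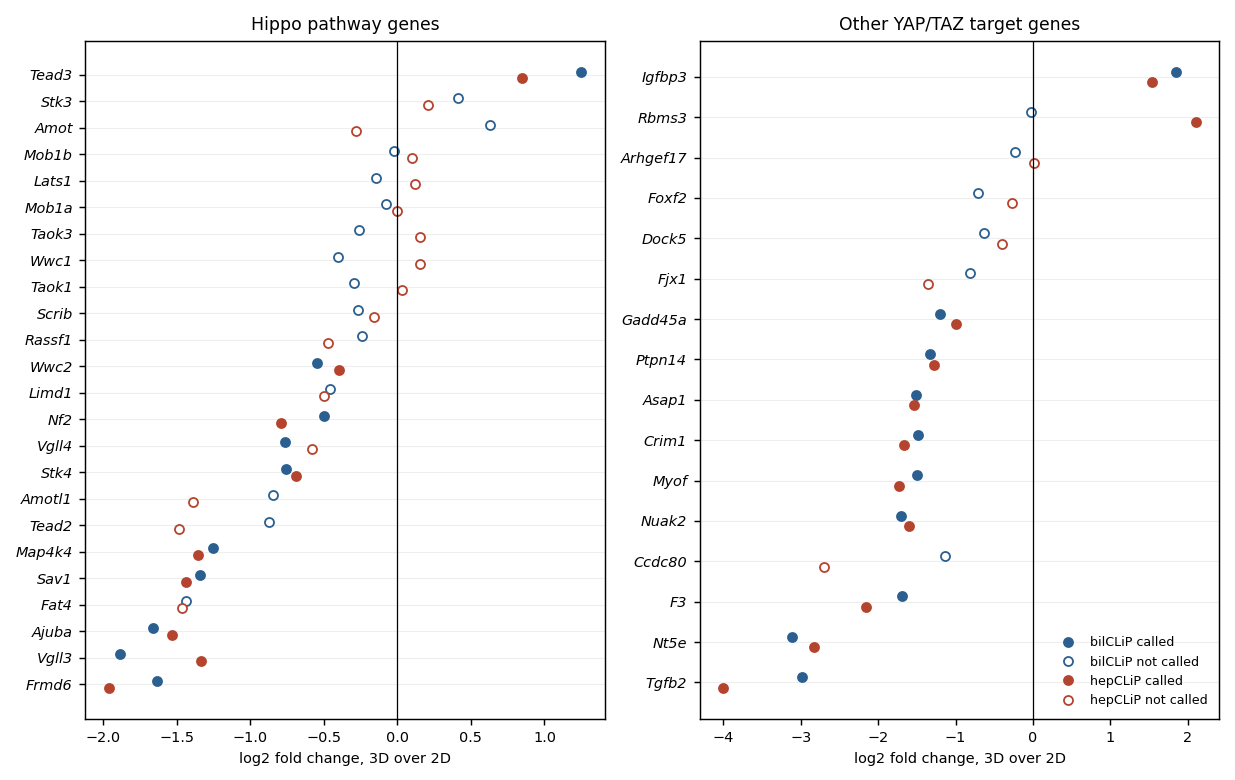
Log2 fold change, 3D over 2D, in bilCLiP and hepCLiP of the 24 tested Hippo pathway genes and of 16 other YAP and TAZ target genes; filled points passed edgeR's test at an adjusted p under 0.05. Tead3 is the only filled point right of 0 on the left, at 1.25 and 0.84, and among the targets Tgfb2 lies at -2.98 in bilCLiP and -4.00 in hepCLiP.

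A published signature of 22 YAP and TAZ targets from human cancers holds 6 of the 10 genes, and its 16 other genes were all tested. Of these, 9 fell and 1 rose in bilCLiP, and 9 fell and 2 rose in hepCLiP, with median log2 fold changes of -1.27 and -1.45, against -0.00 and -0.06 over all genes tested. The shares of all genes tested were 14.5% lower and 15.8% higher in bilCLiP and 17.9% lower and 16.9% higher in hepCLiP. Tgfb2, a TGF-beta ligand, was at 8.18 ± 2.32 CPM in bilCLiP 3D and 64.5 ± 23.4 CPM in bilCLiP 2D, and at 3.88 ± 0.784 CPM in hepCLiP 3D and 62.0 ± 22.1 CPM in hepCLiP 2D (SD, n = 3). It fell 7.88-fold in bilCLiP (adjusted p = 0.000201, edgeR) and 15.98-fold in hepCLiP (adjusted p = 6.5e-05). F3, the tissue factor that starts coagulation, fell 3.22-fold in bilCLiP (adjusted p = 0.00356) and 4.45-fold in hepCLiP (adjusted p = 0.000943).

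Nt5e, the cell surface nucleotidase CD73, fell 8.69-fold in bilCLiP (adjusted p = 0.0219, edgeR) and 7.13-fold in hepCLiP (adjusted p = 0.0204). Its level was low, at 0.316 ± 0.298 CPM in bilCLiP 3D and 2.74 ± 1.71 CPM in bilCLiP 2D, and 1.34 ± 0.863 CPM in hepCLiP 3D and 9.60 ± 7.32 CPM in hepCLiP 2D (SD, n = 3). Leaving out bilCLiP 2D replicate 1 (adjusted p = 0.0698), bilCLiP 3D replicate 2 (0.0839) or bilCLiP 3D replicate 3 (0.0802) ended its bilCLiP call. Leaving out hepCLiP 2D replicate 1 (0.0846), hepCLiP 3D replicate 2 (0.0569) or hepCLiP 3D replicate 3 (0.0625) ended its hepCLiP call.

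The targets called higher were Igfbp3, a binding protein of insulin-like growth factors, and Rbms3. Igfbp3 was at 256 ± 152 CPM in bilCLiP 3D and 71.2 ± 10.2 CPM in bilCLiP 2D (log2 fold change 1.84, adjusted p = 0.0246, edgeR), and at 232 ± 118 CPM in hepCLiP 3D and 79.6 ± 28.4 CPM in hepCLiP 2D (1.54, adjusted p = 0.0440), where the groups overlapped. Its calls ended in 5 and 7 of the 12 fits that left out a library, with adjusted p up to 0.0944 in bilCLiP and 0.124 in hepCLiP. Rbms3, an RNA-binding protein, was at 4.36 ± 2.66 CPM in 3D and 1.01 ± 0.583 CPM in 2D (log2 fold change 2.10, adjusted p = 0.0481), and was at -0.02 in bilCLiP (adjusted p = 0.986). The hepCLiP call of Rbms3 ended in 9 of the 12 fits that left out a library, with adjusted p up to 0.138, and stood without hepCLiP 3D replicate 2, bilCLiP 2D replicate 2 or bilCLiP 3D replicate 3. The difference between its culture effects was -2.13 on the log2 scale (95% interval -4.39 to 0.14) and did not pass the interaction test.

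Serum and actin tension are also known to act through SRF, and serum was 1 of the differences between the cultures. A list of 8 genes held Srf and targets of SRF and its cofactor MRTF. Acta2 and Tagln, at up to 0.928 and 0.474 CPM in any library, were not tested. Of the 6 tested, Srf among them, 3 fell and none rose in each origin. The shares of all genes tested were 14.5% lower and 15.8% higher in bilCLiP and 17.9% and 16.9% in hepCLiP. An unadjusted p under 0.05 was found for 3 of the 6 in bilCLiP and 5 in hepCLiP, against 41.4% and 45.3% of all genes tested. Tpm1, a tropomyosin, fell 3.48-fold in bilCLiP (adjusted p = 0.00136, edgeR) and 4.22-fold in hepCLiP (adjusted p = 0.000586), and Flna, the actin crosslinker filamin A, fell 2.79-fold (adjusted p = 0.00267) and 3.75-fold (adjusted p = 0.000637). Cnn1, calponin, was called lower in both, at -4.54 in bilCLiP (adjusted p = 0.0436) and -4.43 in hepCLiP (adjusted p = 0.0387), but its calls ended in 8 and 7 of the 12 fits that left out a library. Its log2 fold change was -2.79 in bilCLiP without bilCLiP 2D replicate 1 and -2.98 in hepCLiP without hepCLiP 2D replicate 1. Srf itself was at 29.6 ± 4.07 CPM in bilCLiP 3D and 31.5 ± 3.37 CPM in bilCLiP 2D, and at 36.4 ± 9.31 CPM in hepCLiP 3D and 39.8 ± 9.24 CPM in hepCLiP 2D, and did not pass. Its 3D library was at 0.880 to 0.976 of the 2D library in all 6 pairs, and with the replicate block it did not pass either, at -0.09 in bilCLiP (adjusted p = 0.458) and -0.14 in hepCLiP (adjusted p = 0.274).

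Of 8 immediate early genes, which serum induces, 4 fell in bilCLiP and 5 in hepCLiP, against 14.5% and 17.9% of all genes tested. Dusp1, a phosphatase of MAP kinases, fell 9.52-fold in bilCLiP (adjusted p = 0.000129, edgeR) and 4.41-fold in hepCLiP (adjusted p = 0.000758), and Myc fell 2.67-fold (adjusted p = 0.000235) and 4.05-fold (adjusted p = 4.64e-05). Fos fell 6.02-fold (adjusted p = 0.0154) and 6.98-fold (adjusted p = 0.00992), and leaving out bilCLiP 2D replicate 3 (0.0523), bilCLiP 3D replicate 2 (0.0535) or bilCLiP 3D replicate 3 (0.0515) ended the bilCLiP call. The log2 fold change of Fosb was -2.70 in bilCLiP (adjusted p = 0.0847) and -3.85 in hepCLiP (adjusted p = 0.0221). Its hepCLiP call ended with the replicate block (0.0823) and on leaving out any hepCLiP 3D library (0.0580 to 0.0728) or hepCLiP 2D replicate 3 (-1.35, adjusted p = 0.175). Egr1 did not pass, at 0.04 in bilCLiP and 0.13 in hepCLiP. The part of serum or of SRF in the falls of Ccn1, Ccn2 and Ankrd1 was not tested.

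Markers of other liver cell types were also measured. Summed fibroblast markers, of 8 genes, were 6.60 to 19.1 CPM in bilCLiP 3D and 0.155 to 1.73 CPM in bilCLiP 2D, and 4.52 to 284 CPM in hepCLiP 3D and 0.818 to 4.63 CPM in hepCLiP 2D. The value of 284 CPM is that of hepCLiP 3D replicate 1, mostly Dcn at 282 CPM. Dcn also made up most of the other 3D sums. It was at 6.98, 6.37 and 17.8 CPM in bilCLiP 3D replicates 1, 2 and 3. In hepCLiP 3D replicates 2 and 3 it was at 4.68 and 2.64 CPM. Col1a1, by contrast, was at 0.419 ± 0.414 CPM in bilCLiP 3D and 0.420 ± 0.235 CPM in bilCLiP 2D. Of the 8 markers, Col3a1 and Des were at 0 in bilCLiP 3D, Col1a2, Col3a1, Lum and Des in bilCLiP 2D, and Lum in hepCLiP 2D. Without hepCLiP 3D replicate 1, Ccn1, Ankrd1, Axl, Amotl2, Tead1 and Wwtr1 were still called lower in hepCLiP. Summed mesothelial markers, of 4 genes, were 13.04 to 28.0 CPM in bilCLiP 3D and 546 to 873 CPM in bilCLiP 2D, and 5.93 to 25.8 CPM in hepCLiP 3D and 333 to 989 CPM in hepCLiP 2D. Msln was at 7.97 to 27.8 CPM in bilCLiP 3D and 545 to 867 CPM in bilCLiP 2D, and 5.42 to 25.8 CPM in hepCLiP 3D and 333 to 989 CPM in hepCLiP 2D. In bilCLiP 3D replicate 1 Gpm6a added 5.07 CPM to the 7.97 CPM of Msln. Wt1 and Upk3b were at 0 in bilCLiP 3D and Upk3b in hepCLiP 3D. They were near the floor in 2D too, with Wt1 at up to 0.364 CPM and Upk3b at up to 0.1499 CPM in any library. Gpm6a overlapped between cultures in both origins, at 1.81 ± 2.83 CPM in bilCLiP 3D and 2.39 ± 3.57 CPM in bilCLiP 2D. In hepCLiP it was at 0.217 ± 0.192 CPM in 3D and 0.537 ± 0.611 CPM in 2D. The fall of the mesothelial sums in 3D was thus that of Msln, and the other members did not show it. The part of Msln or of this list in the falls of the targets was not tested. Summed endothelial markers, of 5 genes, were low but also lower in 3D, at 0.132 to 1.03 CPM in bilCLiP 3D and 2.76 to 3.70 CPM in bilCLiP 2D, and 0.284 to 0.556 CPM in hepCLiP 3D and 0.591 to 2.05 CPM in hepCLiP 2D. Kdr, at 0.0771 ± 0.0887 CPM in bilCLiP 3D and 2.64 ± 0.634 CPM in bilCLiP 2D, made up most of the bilCLiP 2D sums, and Tek was at 0 in hepCLiP 3D. The part of this list in the falls was not tested. Summed leukocyte markers, of 4 genes, were 5.01 to 19.2 CPM in bilCLiP 3D, 4.13 to 10.1 in bilCLiP 2D, 6.24 to 19.5 in hepCLiP 3D and 5.597 to 10.9 CPM in hepCLiP 2D. Adgre1 was at 0 in bilCLiP 3D, bilCLiP 2D and hepCLiP 3D, and Ptprc at up to 0.293 CPM in any library. The other members went opposite ways. Csf1r was higher in the 3D library of every same-numbered pair, 1.11-fold to 5.89-fold. Cd68 was lower in every pair, at 0.245 to 0.773 of the 2D library.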

How the data were processed

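RNA-seq libraries of 12 cultures were counted per gene. The authors deposited a table of raw counts and a table of normalized counts (unit signal), in which each library's values were its raw counts over a constant. Tools named by the submitters' processing notes are DESeq2, STAR (2.7.10b) and featureCounts (2.0.1), with the build GRCm39. No source used here gives the annotation or the strand setting, and reads of overlapping or antisense genes cannot be told apart.

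The deposited raw counts went into edgeR 4.0.16 under R 4.3.3: filterByExpr, which kept 14798 of 53599 genes, TMM scaling, and a robust quasi-likelihood test (glmQLFit, glmQLFTest) with 4 group means over 12 libraries and 5 contrasts. P-values were adjusted by Benjamini-Hochberg over all genes tested, and genes were called at an adjusted p under 0.05. The procedure was tested on simulated data. CPM are counts scaled to the TMM-adjusted library size. Each SE is the absolute log2 fold change over the root of F, and intervals are at 95%. Totals ran from 16142365 to 21253382 counts. Alternatives were RLE scaling, no filter on low counts, non-robust dispersions, a replicate block, RosaYFP libraries only, fits of 2 groups, DESeq2 1.42.0, limma 3.58.1 on the deposited normalized table (log2 of the value + 1), and each library left out in turn. Library totals without TMM, and both bilCLiP libraries numbered 2 left out, were chosen after seeing the data.

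Same-numbered libraries of the 3D and 2D groups of an origin deviated together from their group means. Over all genes tested, r was 0.432 to 0.506 in bilCLiP and 0.474 to 0.513 in hepCLiP. Differently numbered libraries did not, at r = -0.37 to -0.03 and -0.35 to -0.14. The deviations within a group sum to 0, so positive r for the same number pushes the other r below 0. This contrast is therefore in part arithmetic. The pairing of the 2 cultures within an origin thus comes from the data, since the labels do not say what a number marks. Nothing in the labels says that replicates are separate animals, and p-values measure the spread between these samples only.

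The 10 genes and the other gene lists were chosen with earlier results of these data known. From each list other than the marker lists, up to 4 called members with the largest absolute change in either culture contrast are named, and for Yap1 and Ccn1 the 5 named genes most alike by Pearson's r of log2(CPM + 1). Other genes outside the 10 were named after their values were seen. Promoter windows (250 bases before to 50 after a start of a gene) and chromosomes come from RefSeq, GRCm38.p6, and exon lengths from GENCODE M21. These are not the authors' build. A further biliary marker is not reported here.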

Additional observations from a re-analysis of the deposited data

How the results depend on the processing

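In bilCLiP, the number of the 10 genes called lower in 3D kept within 1.5 times under every alternative run. In hepCLiP the exception was the fit of RosaYFP libraries only, with 2 called, where 2 other Hippo pathway genes and 4 other targets were called. Scaled by library totals without TMM, 18 Hippo pathway genes were called in bilCLiP and 17 in hepCLiP, and of all genes called 80.1% and 83.7% were lower, against 47.9% and 51.4%. All genes called were then 6763 and 7915, against 4485 and 5139, or 769 in hepCLiP with RosaYFP libraries only. With both bilCLiP libraries numbered 2 left out, 6 Hippo pathway genes and 2229 genes in all were called in bilCLiP. Between origins in 3D, DESeq2 called 1 of the 10 genes, 3 Hippo pathway genes and 1 other target. Leaving out each library gave 0 to 1 of the 10 genes and 0 to 2 Hippo pathway genes. Over all genes, 20 were called between origins in 2D (62 with the replicate block, 559 by DESeq2, 5 to 38 under the other alternatives) and 15 in 3D (44, 652 and 3 to 251). The interaction called 0, 16 by DESeq2 and 3 without hepCLiP 2D replicate 2.

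The log2 fold change of Tead4 in bilCLiP was -0.028 without the filter on low counts, -0.025 with the replicate block, -0.47 by library totals, -0.068 by limma and -0.25 to 0.22 with each library left out, and in hepCLiP -0.94 to 0.15. That of Ccn1 between origins in 2D ran from -0.27 to 0.40. The cause was not tested. Of 220 values of the 10 genes per culture contrast, 7 changed sign, 7 lost and 7 gained a call in bilCLiP, and 1, 9 and 4 in hepCLiP. The replicate block changed no other call of the 10 genes than those given for Yap1 and Lats2. With 3 libraries a group, an exact test of a single gene cannot go below p = 0.1, so each p rests on the spread edgeR shares across genes.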

Other observations

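Other chromosomes also differed between replicate numbers in the same way in both cultures. On chromosome 15 (392 genes), hepCLiP replicate 1 was at a median log2 deviation of 0.36 in 3D and 0.38 in 2D. On chromosome 12 (313 genes) the same number was at -0.22 in 3D and -0.22 in 2D. On chromosome 19 (360 genes), which holds Ankrd1, hepCLiP replicate 2 was at 0.24 in 3D and 0.26 in 2D, and the SD of log2 Ankrd1 levels was larger with this median subtracted, 0.931 in 3D and 0.629 in 2D, against 0.838 and 0.528 without. By the range of these medians over the 12 libraries, chromosome 14 came first of 20 chromosomes at 0.805, then chromosome 15 at 0.566, chromosome 9 at 0.520, chromosome 19 at 0.430 and chromosome 12 at 0.304.

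Single libraries stood at the edge of their group for many of the 10 genes. BilCLiP 3D replicate 2 was the lowest of its group for 8 of the 10 genes, against 36.8% of all genes tested. BilCLiP 2D replicate 1 was the highest of its group for 7, against 35.5%, and hepCLiP 2D replicate 3 for 7, against 38.2%.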
